A study of Mus musculus with 12 samples.

Results

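Horizontal cells were followed in whole mouse retina through 5 of their marker genes, Onecut1, Onecut2, Lhx1, Prox1 and Calb1. These genes were taken by name from the gene count table, 5 of 55487 genes, and read in all 4 groups. The groups were 5xFAD retina at 1 month, WT retina at 1 month, 5xFAD retina at 6 months and WT retina at 6 months, with 3 libraries each. 5xFAD animals (strain label Tg6799) model Alzheimer disease with mutant human APP, expressed from a transgene under the neuronal Thy1 promoter, and WT animals were C57BL/6J. Polyadenylated RNA of the whole tissue was sequenced with a kit that does not mark strand. The design asks how the genotypes differ at each age. Whether libraries of a group are separate animals is not stated in the labels, so p-values reflect the spread between these samples alone.

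Horizontal cells are inhibitory interneurons of the outer retina. Their processes contact rod and cone terminals and feed back onto them, which shapes contrast and the surround of the visual signal. During development Onecut1 and Onecut2, cut-homeodomain transcription factors, help to set horizontal cell fate, and the LIM-homeodomain factor Lhx1 guides the cells to their layer. Prox1, a homeodomain factor needed to make horizontal cells, stays on in the adult in horizontal cells, AII amacrine cells, some bipolar cells and Muller glia. Calb1 encodes calbindin, a cytosolic calcium buffer that labels horizontal cells and also some amacrine and ganglion cells. In whole retina, fewer cells of a type and less RNA per cell cannot be told apart, and Prox1 and Calb1 counts come from several cell types.

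Prox1 was higher in 5xFAD retina at 1 month and lower in 5xFAD retina at 6 months. Onecut2 was lower in 5xFAD retina at 6 months. Counts of Onecut1 did not pass the test at either age on their own, but counts of its locus, summed after the data were seen with those of a noncoding gene that shares its last exon, were higher in 5xFAD at 1 month and lower at 6 months. Neither Lhx1 nor Calb1 passed the test between the genotypes at either age. For Onecut1, Onecut2 and Prox1 the genotype difference at 6 months was below that at 1 month by the test of that difference. The Prox1 and Onecut2 differences were smaller once each library's trend with transcript length and GC was taken out. That step ended the calls of Prox1 at 6 months (-0.20, adjusted p = 0.217) and of the difference between the genotype effects of Onecut2 (-0.85, adjusted p = 0.114), and turned Onecut2 at 1 month, which was not called, to -0.06.

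Levels are given as CPM, counts scaled to library size with TMM factors, and calls rest on edgeR's quasi-likelihood test at an adjusted p (Benjamini-Hochberg, all 16233 genes tested) under 0.05. Values after ± are SD over 3 libraries for levels and SE for log2 fold changes, which are 5xFAD over WT or 6 months over 1 month. At 1 month 1 of the 5 genes was called, higher, where 19.6% of all tested genes were called (10.7% higher and 8.91% lower). At 6 months 2 of the 5 were called, both lower, where 6.38% of all tested genes were called (2.48% higher and 3.89% lower). Between 6 and 1 month, 1 of the 5 was called in WT, higher, where 10.5% of all tested genes were called (6.01% higher and 4.49% lower). In 5xFAD 2 of the 5 were called between 6 and 1 month, both lower, where 23.2% of all tested genes were called (10.8% higher and 12.4% lower). The test of the difference between the 2 genotype effects called 3 of the 5, all negative, where 25% of all tested genes were called (11.7% positive and 13.3% negative). The median log2 fold change of the 5 genes was 0.66 at 1 month and -0.48 at 6 months, beside -0.04 and 0.00 over all tested genes.

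**Figure D1:**
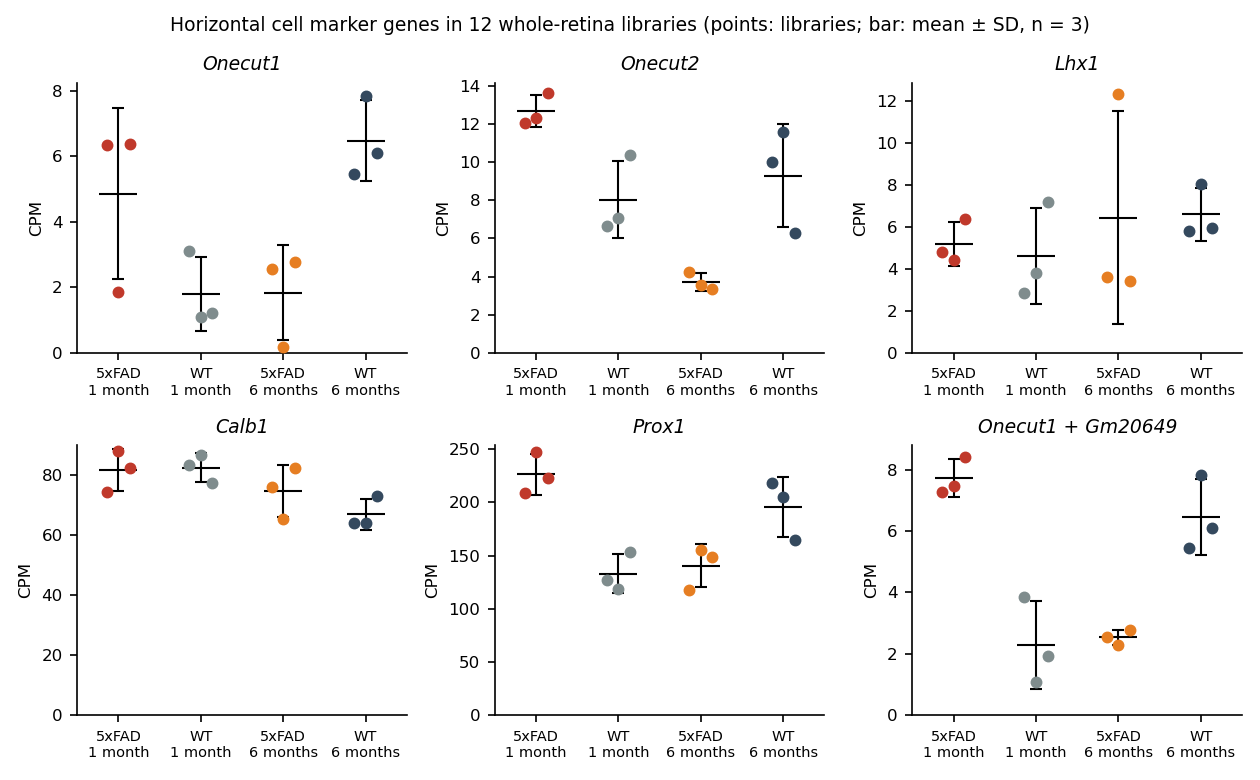
CPM of each gene in the 12 libraries, with the 3 libraries of a group as points and the mean ± SD as a bar, on axes that start at 0. The 3 Prox1 points of 5xFAD at 1 month lie between 209 and 247 CPM, all above WT at 1 month, and those of 5xFAD at 6 months lie between 118 and 155 CPM, all below WT at 6 months; the last panel sums Onecut1 with Gm20649.

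Per length, Prox1 and Calb1 stood well above the other 3 genes. On the approximate TPM scale (counts per base of transcript, scaled to a fixed total), the median level over the 12 libraries was 43.7 for Prox1, 41.2 for Calb1, 3.35 for Lhx1, 2.07 for Onecut1 and 1.16 for Onecut2. Levels of Prox1 (30.0 to 78.0 TPM) and Calb1 (32.2 to 55.2 TPM) overlapped over the libraries. Levels of Lhx1 (1.65 to 7.01 TPM), Onecut1 (0.342 to 4.49 TPM) and Onecut2 (0.435 to 2.04 TPM) overlapped as well. No library of Calb1 came down to the highest level of Lhx1. Relative counting error is therefore largest for Onecut1, whose counts ran from 2.47 to 154 per library, and smallest for Prox1, whose counts ran from 1322 to 4016.

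The libraries also differed in composition, in ways that touch these genes. Totals ran from 10.9 to 19.6 M counts. The mean transcript length behind a count was 4236 ± 15.6 nt in 5xFAD at 1 month and 3709 ± 135 nt in WT at 1 month, and 3658 ± 55.1 nt in 5xFAD at 6 months and 3911 ± 189 nt in WT at 6 months (SD, n = 3 each). Among the 5404 longest of all tested genes, 1460 were called higher and 132 lower in 5xFAD at 1 month, and 41 higher and 499 lower at 6 months. All 5 marker genes belong to these. Onecut2, with one annotated transcript of 16234 nt, is longer than or as long as 99.9% of tested genes and Prox1 than 96.0%, while Calb1, Onecut1 and Lhx1 lie at 75.7%, 71.6% and 69.2%. Results are therefore also given with the trend of counts on transcript length and GC taken out within each library. That step called 1 of the 5 genes at 1 month, higher (11.4% of all tested genes), and 1 at 6 months, lower (8.33%). For age it called 2 in WT, 1 higher and 1 lower (12.2%), and 1 in 5xFAD, lower (14.3%). For the difference between the genotype effects it called 3 (18.4%), Onecut1 and Prox1 negative and Calb1 positive. Ribosomal RNA took 1.44% and 0.758% of counts in replicates 1 and 2 of 5xFAD at 6 months and 0.555% in replicate 2 of WT at 1 month, and at most 0.321% in the other 9 libraries. Mouse App, the gene whose human form is the transgene, averaged 343 ± 22.5 CPM in 5xFAD and 277 ± 44.5 CPM in WT at 1 month, and 286 ± 5.62 CPM in 5xFAD and 312 ± 8.50 CPM in WT at 6 months, so it does not check the genotype labels.

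**Figure D2:**
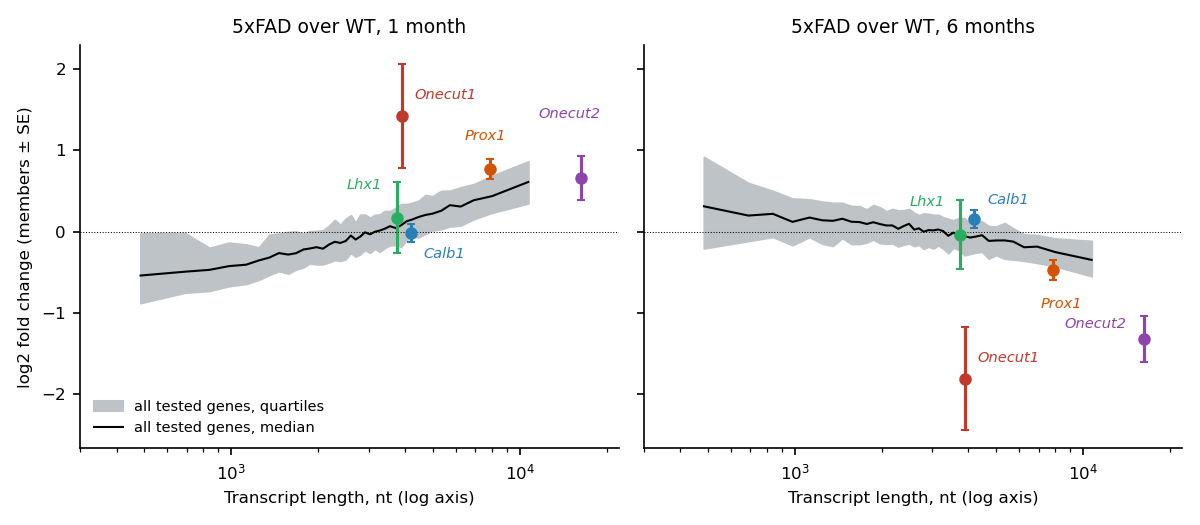
log2 fold change of 5xFAD over WT against transcript length (log axis) at 1 and 6 months, with the median (line) and quartiles (grey) of all tested genes in 40 bins of length and the 5 marker genes as points ± SE. The line climbs with length at 1 month and falls at 6 months. Prox1 sits near its long end, just outside the quartiles of genes of like length at both ages. Onecut2 lies past the end of the line and, at 6 months, below it (-1.32). Onecut1 lies away from the line at both ages.

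Onecut1 (ENSMUSG00000043013, chr9:74861921-74891781 on the forward strand, GRCm38) had 6.34, 1.84 and 6.37 CPM in the 3 libraries of 5xFAD at 1 month, against 3.11, 1.08 and 1.20 CPM in WT at 1 month. The 5xFAD library at 1.84 CPM lay within the WT range, so the groups overlapped. The difference was a log2 fold change of 1.43 ± 0.64 (adjusted p = 0.128, edgeR), in an interval of 0.14 to 2.71 at 2 SE. It passed the threshold without replicate 2 of 5xFAD at 6 months, which shares the estimate of spread (adjusted p = 0.0377), and with a filter of 1 count in all (adjusted p = 0.0258). At 6 months Onecut1 had 2.56, 0.162 and 2.77 CPM in 5xFAD, against 5.46, 7.85 and 6.11 CPM in WT. Here every 5xFAD library lay below every WT library, as was so in one or the other direction for 24.2% of all tested genes. The log2 fold change was -1.81 ± 0.63 and also missed the threshold (adjusted p = 0.0943, edgeR). It passed with a filter of 1 count in all (-1.84, adjusted p = 0.00412) and with the replicate number as a block (-2.21, adjusted p = 0.0412), of the 22 alternatives run. Onecut1 alone was called between ages in neither genotype, at 1.84 ± 0.64 in WT (adjusted p = 0.0710) and -1.40 ± 0.64 in 5xFAD (adjusted p = 0.124). The WT value passed under 6 of 22 alternatives, without replicate 2 of 5xFAD at 6 months (adjusted p = 0.0143), without replicate 1 of WT at 1 month (2.53, adjusted p = 0.0417), with the DESeq2 Wald test (adjusted p = 0.0332), the filter of 1 count in all (adjusted p = 0.00254), the block (adjusted p = 0.0327) and the fit of 6 libraries (adjusted p = 0.0137). The 5xFAD value passed with that filter alone (adjusted p = 0.0263). The genotype effect at 6 months minus that at 1 month was -3.24 ± 0.90 on the log2 scale (adjusted p = 0.0118, edgeR) and -3.03 after removal of the length and GC trend (adjusted p = 0.0209). Of the 21 alternatives run, that call was lost only when the 3 libraries with the most ribosomal RNA were left out, where the value was -2.39. That fit kept only replicate 3 of 5xFAD at 6 months.

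In 1 library of each 5xFAD group the reads of the Onecut1 locus were largely given to another gene. Gm20649, a noncoding gene annotated on the same strand at chr9:74848463-74891476, shares 2171 exonic bases at chr9:74889306-74891476 with Onecut1, beside 4113 exonic bases in all for Onecut1 and 2740 for Gm20649. In replicate 2 of 5xFAD at 1 month, 19.9 expected counts went to Onecut1 and 61.5 to Gm20649, and in replicate 2 of 5xFAD at 6 months 2.47 and 25.7. These are the libraries in which Onecut1 read low for its group. In WT at 6 months Gm20649 was listed at 0 in all 3 libraries. Reads in the shared bases fit both genes, so the split between them is an estimate.

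Summed over both genes, a step chosen after the data were seen, the locus had 7.27, 7.49 and 8.43 CPM in 5xFAD at 1 month, against 3.87, 1.08 and 1.92 CPM in WT at 1 month. At 6 months the sum was 2.56, 2.28 and 2.77 CPM in 5xFAD, against 5.46, 7.85 and 6.11 CPM in WT. With the sum the genotypes no longer overlapped at 1 month, as for 37.6% of all tested genes. At 6 months they did not overlap, as was already so for Onecut1 alone and for 24.2% of all tested genes. The SD of the 5xFAD group fell to 0.615 CPM at 1 month, against 2.61 CPM for Onecut1 alone. The summed locus was higher in 5xFAD at 1 month (log2 fold change 1.75 ± 0.40, adjusted p = 0.00280, edgeR) and lower at 6 months (-1.35 ± 0.39, adjusted p = 0.0377). Both calls held after trend removal, at 1.64 (adjusted p = 0.00583) and -1.26 (adjusted p = 0.0381). The other alternatives, such as left-out libraries, were not run on the sum. Between 6 and 1 month the sum was higher in WT (1.50 ± 0.39, adjusted p = 0.0153) and lower in 5xFAD (-1.61 ± 0.39, adjusted p = 0.00455).

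**Figure D3:**
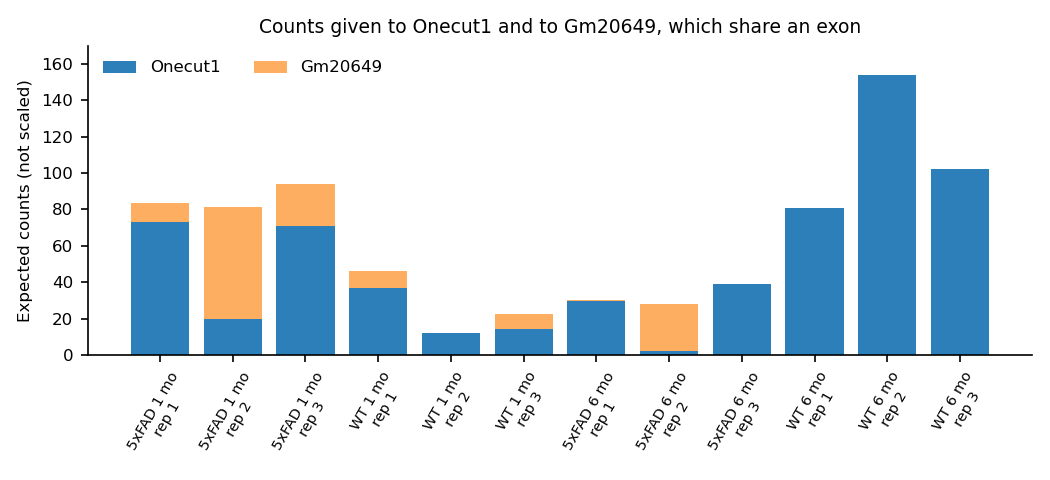
Expected counts, not scaled for depth, given to Onecut1 (blue) and to Gm20649 (orange) in each library. In replicate 2 of both 5xFAD groups most of the bar belongs to Gm20649, and in WT at 6 months none does.

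Promoter windows are shown for the 3 of the 5 genes matched in the RefSeq table, Onecut1 and Prox1, whose genotype differences had opposite signs at the 2 ages, and Lhx1, which was called in no comparison. Onecut2 and Calb1 were not matched. They run from 250 bases before to 50 bases after the RefSeq gene start on GRCm38.p6, read on the strand of the gene. Capitals mark matches, on either strand, to the 2 motifs found among 4 searched, the CCAAT box and the TATA box motif TATAAA.
Onecut1 promoter, chr9:74861671-74861970, forward strand: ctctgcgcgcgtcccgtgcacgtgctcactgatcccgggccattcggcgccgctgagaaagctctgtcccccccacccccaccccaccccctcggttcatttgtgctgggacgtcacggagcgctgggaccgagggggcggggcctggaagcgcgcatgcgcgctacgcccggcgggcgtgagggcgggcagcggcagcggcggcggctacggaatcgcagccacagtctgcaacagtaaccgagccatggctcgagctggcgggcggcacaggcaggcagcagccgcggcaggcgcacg
Prox1 promoter, chr1:190170778-190171077, reverse strand: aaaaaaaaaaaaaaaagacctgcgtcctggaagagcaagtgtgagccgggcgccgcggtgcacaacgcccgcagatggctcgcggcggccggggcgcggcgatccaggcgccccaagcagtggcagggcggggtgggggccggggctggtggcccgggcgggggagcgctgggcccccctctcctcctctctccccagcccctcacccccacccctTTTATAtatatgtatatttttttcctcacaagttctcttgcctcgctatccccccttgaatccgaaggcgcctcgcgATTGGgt
Lhx1 promoter, chr11:84525485-84525784, reverse strand: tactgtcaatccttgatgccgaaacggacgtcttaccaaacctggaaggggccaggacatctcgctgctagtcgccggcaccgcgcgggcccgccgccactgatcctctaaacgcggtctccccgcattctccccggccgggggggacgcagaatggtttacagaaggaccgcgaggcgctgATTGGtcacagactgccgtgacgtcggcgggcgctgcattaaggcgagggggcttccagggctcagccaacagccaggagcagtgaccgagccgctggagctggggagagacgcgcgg
The Onecut1 window is 73% G and C with 38 CpG dinucleotides, beside medians of 52.7% and 7 over 32851 windows of the same size. The Prox1 window holds 25 CpG and the Lhx1 window 31. CCAAT lies on the opposite strand in the windows of Prox1 and Lhx1 (37.4% of all windows hold it on either strand), and TATAAA on the opposite strand in that of Prox1 (13.6% of all windows). The letters ATTGAT, read by Onecut proteins, and TAATTA, a homeodomain core, were in none of the 3 windows and in 7.54% and 5.29% of all windows. The RefSeq start of Prox1 lies 113 bases from that of the transcript that held most of its counts.

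Onecut2 (ENSMUSG00000045991, chr18:64340020-64400987, forward strand) had 12.1, 12.3 and 13.6 CPM in 5xFAD at 1 month, against 6.64, 7.10 and 10.4 CPM in WT at 1 month. The groups did not overlap, which held for 37.6% of all tested genes at this age. The log2 fold change of 0.66 ± 0.27 missed the threshold (adjusted p = 0.0948, edgeR), and after removal of the length and GC trend it was -0.06 (adjusted p = 0.929), with its sign turned. It passed the threshold only without replicate 3 of WT at 1 month, of the 22 alternatives run (0.91, adjusted p = 0.0395). At 6 months Onecut2 had 4.26, 3.56 and 3.34 CPM in 5xFAD, against 10.0, 11.6 and 6.29 CPM in WT. Every 5xFAD library lay below every WT library, where 24.2% of all tested genes did not overlap. Onecut2 was lower by a log2 fold change of -1.32 ± 0.28 (adjusted p = 0.00659, edgeR), a level 0.400 times that of WT, and by -0.91 (adjusted p = 0.0331) with the trend removed. The call was lost without replicate 2 of WT at 6 months (-1.16, adjusted p = 0.0651). It was also lost on leaving out the 3 libraries with the most ribosomal RNA (-1.48). That fit kept only replicate 3 of 5xFAD at 6 months.

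The level of Onecut2 in 5xFAD at 6 months was also below that in 5xFAD at 1 month, at 3.72 ± 0.484 CPM against 12.7 ± 0.841 CPM (SD, n = 3 each), with no overlap between the ages, as for 36.5% of all tested genes. This log2 fold change of -1.77 ± 0.29 (adjusted p = 0.00011, edgeR) was called under all 22 alternatives and was -1.06 with the trend removed (adjusted p = 0.00848). In WT, Onecut2 averaged 9.30 ± 2.72 CPM at 6 months and 8.03 ± 2.03 CPM at 1 month (SD, n = 3 each), and the groups overlapped (0.21 ± 0.27, adjusted p = 0.703, edgeR). That value turned to -0.21 with the trend removed. The genotype effect at 6 months minus that at 1 month was -1.98 ± 0.39 (adjusted p = 0.00069, edgeR), and it was not called with the trend removed (-0.85, adjusted p = 0.114).

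Lhx1 (ENSMUSG00000018698, chr11:84518284-84525535, reverse strand) had 4.77, 4.42 and 6.37 CPM in 5xFAD at 1 month, against 2.86, 3.77 and 7.19 CPM in WT at 1 month. At 6 months it had 3.58, 12.3 and 3.41 CPM in 5xFAD, against 5.79, 8.05 and 5.93 CPM in WT. Replicate 2 of 5xFAD at 6 months held the highest level of all 12 libraries, while the other 2 libraries of that group lay below all of WT at 6 months. The difference was 0.17 ± 0.44 at 1 month (adjusted p = 0.827, edgeR) and -0.04 ± 0.42 at 6 months (adjusted p = 0.973). Intervals of 2 SE ran from -0.70 to 1.05 at 1 month and from -0.89 to 0.81 at 6 months. Without replicate 2 of 5xFAD at 6 months the value at 6 months was -0.92 (adjusted p = 0.223). Lhx1 was called between ages in neither genotype, at 0.52 ± 0.43 in WT (adjusted p = 0.519, edgeR) and 0.31 ± 0.43 in 5xFAD (adjusted p = 0.658).

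Prox1 (ENSMUSG00000010175, chr1:190118035-190170714, reverse strand) had 209, 247 and 223 CPM in 5xFAD at 1 month, against 127, 119 and 154 CPM in WT at 1 month. All 3 5xFAD libraries lay above all WT libraries, where 37.6% of all tested genes did not overlap. Prox1 was higher by a log2 fold change of 0.77 ± 0.12 (adjusted p = 0.00012, edgeR), or 1.70-fold. It was called under all 22 alternatives, with its smallest value, 0.32 ± 0.10, after removal of the length and GC trend (adjusted p = 0.0355). At 6 months Prox1 had 118, 155 and 149 CPM in 5xFAD, against 219, 205 and 164 CPM in WT. The groups again did not overlap, as for 24.2% of all tested genes. Prox1 was lower by a log2 fold change of -0.48 ± 0.12 (adjusted p = 0.0198, edgeR), a level 0.718 times that of WT.

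The lower Prox1 level at 6 months was called under 16 of 22 alternatives. With the trend removed it was -0.20 ± 0.10 (adjusted p = 0.217). When the 3 libraries with the most ribosomal RNA were left out, with only replicate 3 of 5xFAD at 6 months kept, it was -0.40 and not called. It also missed the threshold without replicate 1 of 5xFAD (-0.39, adjusted p = 0.0947), without replicate 1 of WT (-0.41, adjusted p = 0.113) and without replicate 2 of WT at 6 months (-0.47, adjusted p = 0.0857), and in a fit of the 6 libraries compared (adjusted p = 0.0712). Between 6 and 1 month Prox1 was higher in WT (0.56 ± 0.12, adjusted p = 0.00449, edgeR), with 0.29 after trend removal (adjusted p = 0.0486). In 5xFAD it was lower (-0.69 ± 0.12, adjusted p = 0.00029), but not called with the trend removed (-0.23, adjusted p = 0.126). The genotype effect at 6 months minus that at 1 month was -1.25 ± 0.17 (adjusted p = 1.5e-05, edgeR) and -0.52 with the trend removed (adjusted p = 0.00898).

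Markers of other Prox1-expressing cells were read beside it. At 1 month, where 19.6% of all tested genes were called, 3 of 10 bipolar cell markers were higher and 1 lower in 5xFAD, 1 of 10 amacrine cell markers was higher and 1 lower, and 3 of 10 Muller glia markers were higher and 2 lower. At 6 months, where 6.38% of all tested genes were called, 2 of 10 bipolar, 1 of 10 amacrine and 2 of 10 Muller glia markers were lower, and none of these 30 was higher. With the length and GC trend removed, 1 bipolar marker was higher and 0 lower at 1 month, 0 amacrine markers were called, and 2 Muller glia markers were higher and 1 lower, and at 6 months 2 bipolar, 1 amacrine and 1 Muller glia markers were lower. Summed bipolar markers ran from 1678.4 to 1730.4 CPM in 5xFAD and 1471.9 to 1638.5 CPM in WT at 1 month. At 6 months they ran from 1427.7 to 1496.9 CPM in 5xFAD and 1514.2 to 1711.2 CPM in WT. These bipolar sums, in which Trpm1 was the most abundant gene, overlapped at neither age. Of all tested genes, 37.6% did not overlap at 1 month and 24.2% at 6 months. The median log2 fold change of the 10 bipolar markers was 0.045 at 1 month and -0.006 at 6 months. Summed amacrine markers ran from 1358.8 to 1537.9 CPM in 5xFAD and 1386.7 to 1522.0 CPM in WT at 1 month, and from 1257.7 to 1294.3 CPM in 5xFAD and 1351.6 to 1376.5 CPM in WT at 6 months. Summed Muller glia markers ran from 3612.5 to 4010.5 CPM in 5xFAD and 3679.3 to 3913.4 CPM in WT at 1 month, and from 3938.1 to 4161.6 CPM in 5xFAD and 4305.4 to 4670.5 CPM in WT at 6 months. For amacrine and Muller glia markers the genotypes overlapped at 1 month and not at 6 months. Their median log2 fold changes were 0.09 and 0.12 at 1 month, and -0.07 and -0.16 at 6 months. The 6 markers of lymphatic endothelium, another Prox1-expressing cell type, of which Reln was the most abundant, summed to 292.6 to 328.9 CPM in 5xFAD and 179.2 to 226.9 CPM in WT at 1 month, and to 155.4 to 186.2 CPM in 5xFAD and 202.9 to 256.4 CPM in WT at 6 months. These sums did not overlap at either age. Led by Reln, they cannot show whether lymphatic endothelium was in the tissue. Of the 6 markers, 1 had no counts in 5xFAD at 1 month and in WT at 6 months. In each of the other groups 2 had none. Of 4 tested 1 was higher at 1 month and 1 lower at 6 months. The median log2 fold change of the 4 was 0.06 at 1 month and -0.26 at 6 months. Outside these cell types, cone markers summed to 1182.8 to 1397.6 CPM in 5xFAD and 1459.3 to 1712.9 CPM in WT at 1 month. At 6 months cone sums were 1614.8 to 1755.5 CPM in 5xFAD and 1255.3 to 1361.5 CPM in WT. They did not overlap and had signs opposite to those of Prox1. Rod markers summed to 57675 to 62014 CPM in 5xFAD and 52392 to 55510 CPM in WT at 1 month. At 6 months rod sums were 57881 to 61248 CPM in 5xFAD and 48407 to 52035 CPM in WT, again higher without overlap. Ganglion cell markers summed to 557.52 to 566.15 CPM in 5xFAD and 588.83 to 696.83 CPM in WT at 1 month. Ganglion cell sums overlapped at 6 months. Pigment epithelium markers, 5 of 9 tested lower at 1 month, summed to 32.3 to 43.8 CPM in 5xFAD and 84.4 to 159.6 CPM in WT at that age. Microglia markers summed to 39.7 to 48.35 CPM in 5xFAD and 51.5 to 58.05 CPM in WT at 1 month. At 6 months pigment epithelium and microglia sums overlapped between the genotypes. Lens also expresses Prox1. The 14 lens markers summed to 7.03, 76.1 and 24.3 CPM in 5xFAD at 1 month, against 1.11 to 3.41 CPM in WT at 1 month, with the lens fibre gene Lim2 at 0 in all 12 libraries. The part of any of these cells in the Prox1 result was not tested. Prox1 read 209, 247 and 223 CPM in the 3 libraries of 5xFAD at 1 month in the same order, and without the one with the most lens RNA the log2 fold change was 0.70 (adjusted p = 0.00202, edgeR).

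An antisense gene, Prox1os, overlaps the start of Prox1 on the other strand at chr1:190170296-190217276. Because the kit does not mark strand, reads in the overlap could come from either gene. Prox1os held 34, 26 and 30 counts in 5xFAD at 1 month, against 43, 66 and 38 counts in WT at 1 month. At 6 months it held 58, 19 and 46 counts in 5xFAD, against 43, 49 and 75 counts in WT. In every library these counts were few beside those of Prox1, which had at least 1322.

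Calb1 (ENSMUSG00000028222, chr4:15881264-15908064, forward strand) had 74.3, 88.1 and 82.4 CPM in 5xFAD at 1 month, against 83.3, 86.7 and 77.1 CPM in WT at 1 month. The groups overlapped, with a log2 fold change of -0.01 ± 0.11 (adjusted p = 0.950, edgeR) whose interval of 2 SE ran from -0.24 to 0.21. With the length and GC trend removed it was -0.29 (adjusted p = 0.0967). At 6 months Calb1 had 76.1, 65.4 and 82.4 CPM in 5xFAD, against 63.9, 63.9 and 72.8 CPM in WT. The difference of 0.16 ± 0.11 (adjusted p = 0.457, edgeR) had an interval of -0.06 to 0.38, and was 0.31 with the trend removed (adjusted p = 0.0972). In WT all 3 libraries at 6 months lay below all 3 at 1 month, at 66.9 ± 5.16 CPM against 82.4 ± 4.85 CPM (SD, n = 3 each), as 30.7% of all tested genes did not overlap between these groups. That log2 fold change of -0.30 ± 0.11 missed the threshold (adjusted p = 0.0860, edgeR) and passed it with the length and GC trend removed (-0.51, adjusted p = 0.00338). In 5xFAD the age difference of -0.13 ± 0.11 was not called (adjusted p = 0.448, edgeR). The genotype effect at 6 months minus that at 1 month was 0.17 ± 0.16 (adjusted p = 0.464), and with the trend removed it was 0.60 and was called (adjusted p = 0.00902), with the sign opposite to that of Prox1 and Onecut2.

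**Figure D4:**
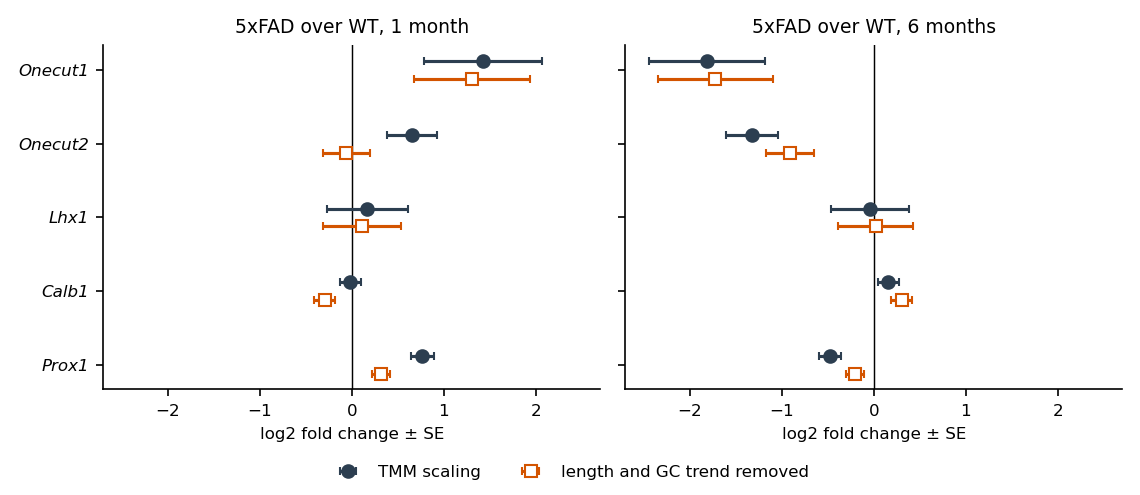
log2 fold change of 5xFAD over WT ± SE for the 5 genes at 1 and 6 months, with TMM scaling (filled circles) and after removal of each library's length and GC trend (open squares). Onecut2 goes to -0.06 at 1 month and Prox1 to 0.32 with the trend removed, while Onecut1 stays at 1.31 at 1 month and -1.72 at 6 months.

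Each gene was carried by 1 coding transcript. The share of a gene's counts over the 12 libraries was 98.9% for Prox1-202, 99.3% for Calb1-201, 97.9% for Onecut1-201 and 96.1% for Lhx1-201, and Onecut2-201 is the only transcript of its gene. Of 13 annotated transcripts 6 had enough counts to test. Prox1-202 was higher in 5xFAD at 1 month (log2 fold change 0.76 ± 0.14, adjusted p = 0.0263, edgeR over all transcripts, of which 2.52% were called). It was lower in 5xFAD at 6 months than in 5xFAD at 1 month (-0.69 ± 0.14, adjusted p = 0.0330), as was Onecut2-201 (-1.80 ± 0.35, adjusted p = 0.0249), where 3.12% of transcripts were called. At 6 months neither Prox1-202 (-0.51 ± 0.14, adjusted p = 0.174) nor Onecut2-201 (-1.38 ± 0.35, adjusted p = 0.124) was called between the genotypes, where 0.488% of transcripts were called, and no transcript of the 5 genes was called for age in WT, where 0.916% were. The genotype effect at 6 months minus that at 1 month was called for Prox1-202 (-1.27, adjusted p = 0.00688) and Onecut2-201 (-2.05, adjusted p = 0.0357), as it was for 6.05% of transcripts. The 3 transcripts annotated with a retained intron, Calb1-202, Calb1-203 and Lhx1-203, held at most 40.8 counts in any library and were not tested.

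Other genes known from horizontal cells were read from a list of 14, of which 12 had enough counts to test. Of all tested genes, 19.6% were called between the genotypes at 1 month and 6.38% at 6 months. Of these 12, Tfap2b, a transcription factor of horizontal and amacrine cells, was the one called, at both ages. It averaged 191 ± 4.58 CPM in 5xFAD and 128 ± 18.1 CPM in WT at 1 month, and 129 ± 13.9 CPM in 5xFAD and 186 ± 4.48 CPM in WT at 6 months (SD, n = 3 each). The groups did not overlap at either age, as for 37.6% of all tested genes at 1 month and 24.2% at 6 months. Tfap2b was higher at 1 month (log2 fold change 0.58 ± 0.10, adjusted p = 0.00039, edgeR) and lower at 6 months (-0.53 ± 0.10, adjusted p = 0.00313), and both calls held with the trend removed (0.28, adjusted p = 0.0263, and -0.34, adjusted p = 0.00888). The other 11 tested genes were not called at either age, among them the most abundant, neurofilament light chain gene Nefl (0.00 ± 0.09 at 1 month and 0.23 ± 0.09 at 6 months) and the transcription factor gene Pax6 (-0.19 ± 0.09 and -0.22 ± 0.09). After trend removal 11.4% of all tested genes were called at 1 month and 8.33% at 6 months. Of the 12, another gene then passed at each age, both higher. These were Slc32a1, the vesicular transporter gene for GABA and glycine, at 1 month (0.41, adjusted p = 0.0203) and Nefl at 6 months (0.29, adjusted p = 0.0133). Slc32a1 was named after its values were seen. The median log2 fold change of the 12 was 0.07 at 1 month and -0.17 at 6 months.

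Onecut3, another member of the Onecut family, fell in 5xFAD retina at 6 months relative to 1 month (3.24 ± 0.309 against 6.44 ± 0.450 CPM, SD, n = 3 each, log2 fold change -0.99 ± 0.32, adjusted p = 0.0278, edgeR). With the trend removed that value was -0.75 (adjusted p = 0.119), and the gene was named after its values were seen. Gja10, which encodes a connexin of horizontal cell gap junctions, had 0 to 37 counts per library and was called in no comparison. Ptf1a and Foxn4, which act in progenitors upstream of the Onecut genes, had at most 1 and 3 counts in any library.

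**Figure D5:**
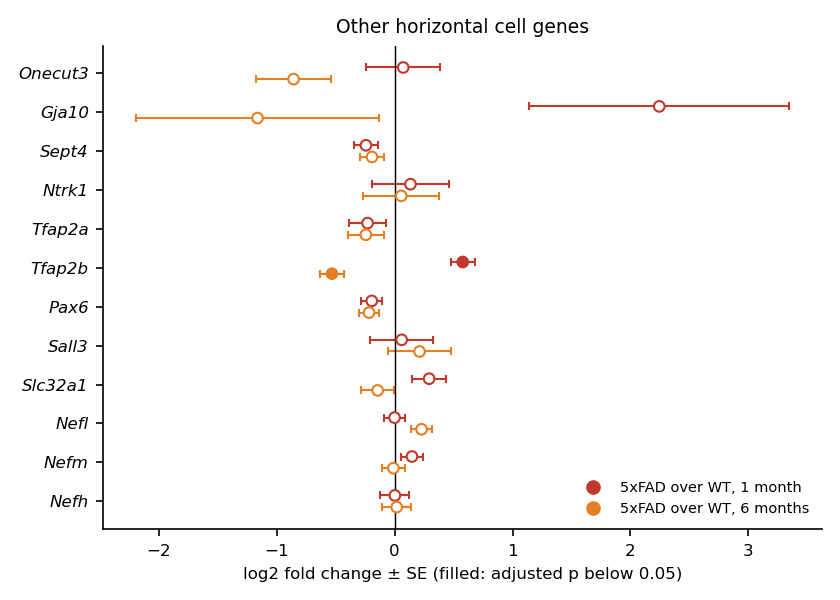
log2 fold change of 5xFAD over WT ± SE at 1 and 6 months for the 12 other horizontal cell genes tested, filled where the adjusted p was below 0.05. Tfap2b is filled at both ages, at 0.58 and -0.53.

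The 5 genes did not move as one set across the 12 libraries. Pearson's r of log2 CPM was 0.71 between Onecut2 and Prox1, 0.51 between Onecut1 and Onecut2 and 0.43 between Onecut1 and Prox1, and -0.68 between Lhx1 and Calb1. About the group means it was 0.50 for Onecut2 with Prox1, 0.01 for Onecut1 with Onecut2 and -0.44 for Onecut1 with Prox1. These are descriptions over 12 libraries that also differ in depth and length composition. Among 13289 coding genes that averaged 1 CPM or more, those most like Prox1 in pattern were Bbx (r = 0.98), Lmtk2 (r = 0.98) and Sesn3 (r = 0.97), whose transcripts are 8471, 8114 and 9065 nt long. Most like Onecut2 were Gprin2 (r = 0.97), Ube4b (r = 0.96) and Ubr2 (r = 0.95). For Onecut1 they were Dhh (r = 0.93), Phf3 (r = 0.91) and Cdk7 (r = 0.90), for Lhx1 Fam102a (r = 0.91), Greb1 (r = 0.85) and Kctd1 (r = 0.84), and for Calb1 Tmsb15b1 (r = 0.90), Cdc42ep2 (r = 0.87) and Rps27rt (r = 0.87).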

How the data were processed

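Whole-retina libraries (12) were read from tables of gene-level and transcript-level expected counts, which the authors deposited without normalisation. Per the submitters' processing notes, the build was GRCm38.p6 and the tools were RSEM 1.3.3, STAR 2.7.1a, DESeq2 1.32.0 and Trim Galore 0.6.6; their roles and the annotation are not given in the sources used here. Identifiers were matched to GENCODE M21 (55227 of 55487 genes). Counts were rounded and fitted in R 4.3.3 with edgeR 4.0.16 (TMM, filterByExpr, robust quasi-likelihood F test, 1 coefficient per group over 12 libraries, 8 residual degrees of freedom), with Benjamini-Hochberg adjustment over 16233 genes or 45326 transcripts. The SE is the absolute log2 fold change over the square root of F. Comparisons that use the same group share its libraries.

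Totals of 10.9 to 19.6 M counts left fewest counts for Onecut1, Onecut2 and Lhx1. Replicates differed by a chi-square of 4.05 to 26.7 per degree of freedom, so no library copies another. Replicate numbers did not pair libraries (0 of 18 pairs had correlated deviations above 0.1). Alternatives were other scalings, filters, a block, DESeq2 1.42.0, left-out libraries, and removal of each library's trend on length and GC (splines with 4 degrees of freedom). Summing Onecut1 with Gm20649 was chosen after the data were seen. The marker genes and lists were chosen with earlier results of these data known. The 5 genes are named throughout. Of other horizontal cell genes those called between genotypes and the 3 most abundant are named (Onecut3, Gja10, Slc32a1, Ptf1a and Foxn4 were added after their values were seen), and per marker gene the 3 coding genes with the highest Pearson's r. The steps were tested on simulated data. Figures used Python 3.11.15 and matplotlib 3.10.9.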

Additional observations from a re-analysis of the deposited data

Results flagged for a closer look

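For 3 of the 5 marker genes the genotype effect differed between the ages by the interaction term of the edgeR fit over all 12 libraries. The effect at 6 months minus the effect at 1 month was -3.24 for Onecut1 (adjusted p = 0.0118), -1.98 for Onecut2 (adjusted p = 0.00069) and -1.25 for Prox1 (adjusted p = 1.5e-05), all log2, where 25% of all tested genes were called. At 1 month all 3 Prox1 and Onecut2 libraries of 5xFAD lay above those of WT, and at 6 months below. Of the 3 Onecut1 libraries of 5xFAD, 2 lay above those of WT at 1 month and all 3 below at 6 months. The genotypes did not overlap for 37.6% of all tested genes at 1 month and 24.2% at 6 months. With the length and GC trend removed the 3 values were -3.03, -0.85 and -0.52, and that of Onecut2 was not called (adjusted p = 0.114). The part of transcript length, lens RNA and ribosomal RNA in these values was not tested beyond the alternatives given.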

How the results depend on the processing

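Of 595 alternative values 526 kept their direction and their side of the threshold. Removal of the length and GC trend changed the number of genes called to 1853 at 1 month (804 higher and 1049 lower, against 1732 and 1446) and to 2320 for age in 5xFAD (1443 and 877, against 1760 and 2012); at 6 months the split was 904 and 449, against 403 and 632, for age in WT 834 and 1143, against 976 and 729, and for the interaction 1810 and 1176, against 1892 and 2162. With Onecut1 and Gm20649 also summed these counts were 1855 and 2321. It left 1 of the 5 marker genes called at 6 months and 1 for age in 5xFAD. For age in WT it called 2, Prox1 higher and Calb1 lower (3 with the sum). It turned Onecut2 to -0.058 at 1 month and -0.207 for age in WT, Lhx1 to 0.0213 at 6 months (0.0211 with the sum) and Calb1 to 0.0906 for age in 5xFAD. Without the 3 libraries richest in ribosomal RNA 321 genes and 0 of the 5 were called at 6 months, 1947 genes for age in 5xFAD and 2354 for the interaction, and Lhx1 turned to -0.591 and Calb1 to 0.0278 for age in 5xFAD. Fits of 6 libraries called 501 genes and 1 of the 5 at 6 months, and could not be made for the interaction. For the 5 genes, 2 were called at 1 month with a minimum of 1 count in all or with the summed locus, and 2 for age in WT with the DESeq2 Wald test, the same minimum, the block, the 6-library fit or the sum. Calb1 at 1 month turned to 0.0028 with DESeq2 size factors and in its Wald test, 0.0043 with a minimum of 1 CPM in 3 libraries, 0.0022 with 6 libraries, 0.017 without the libraries rich in ribosomal RNA and 0.0041 without pseudogenes, mitochondrial and ribosomal RNA genes. Leaving out 1 library gave 1893 to 3501 genes and 250 to 1175 transcripts called at 1 month, 276 to 1687 and 36 to 486 at 6 months, 780 to 2099 and 71 to 579 for age in WT, 432 to 1460 transcripts for age in 5xFAD and 1102 to 2832 for the interaction. Of the 5 genes it called 1 to 2 at 1 month, 0 to 2 at 6 months and 1 to 2 for age in WT. Lhx1 then ran from -0.0617 to 0.673 at 1 month, -0.92 to 0.24 at 6 months, -0.57 to 0.60 for age in 5xFAD and -1.09 to 0.0479 for the interaction, and Calb1 from -0.0709 to 0.0497 at 1 month. The causes were not tested.

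The replicate numbers are shared by the groups but did not pair the libraries (correlations of deviations -0.085 to 0.062). With the replicate block, 2912 genes were called at 1 month, 833 at 6 months, 1457 for age in WT, 3449 for age in 5xFAD and 3765 for the interaction, and 368, 40, 110, 561 and 1491 transcripts. Onecut1 passed the threshold with it at 6 months (-2.21, adjusted p = 0.0412) and for age in WT (2.11, adjusted p = 0.0327). Among the 5 genes counts were fewest for Onecut1, at 2.47 to 154 per library.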
